A study of Mus musculus with 2 samples.

Results

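Lysophosphatidic acid (LPA) signalling genes were examined in endothelial cells sorted from normal mouse brain. The set holds 9 genes: the receptors *Lpar1*, *Lpar2*, *Lpar3*, *Lpar4* and *Lpar6*, the LPA-producing enzyme *Enpp2*, and the lipid phosphate phosphatases *Ppap2a*, *Ppap2b* and *Ppap2c*. The members were taken by gene symbol from the platform annotation, under their older or current names. This matched 17 of the 45101 probe sets on the array, for 8 of the 9 genes. No probe set was matched to *Enpp2*, which is not analysed here. Current annotation calls *Ppap2a* *Plpp1*, *Ppap2b* *Plpp3* and *Ppap2c* *Plpp2*.

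The study compared CD31+ Prom1+ with CD31+ Prom1- endothelial cells of C57BL/6 mice without pathology, separated by flow sorting with antibodies to CD31, a surface protein of endothelium, and to Prom1 (CD133). The comparison was made to find secreted and signalling genes by which Prom1+ endothelium might act on tumor growth. Each population was measured on 1 array, and neither was treated. Neither the age nor the number of the mice is stated in the sources used. No p-value or replicate error could be had, and every difference below is between these 2 arrays.

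LPA is a small phospholipid in blood and tissue fluid that acts on cells through G protein-coupled receptors. Autotaxin, the product of *Enpp2*, makes it outside the cell from lysophosphatidylcholine. The lipid phosphate phosphatases, whose active site faces outward at the plasma membrane, remove its phosphate and so end the signal. The receptors *Lpar1* to *Lpar3* belong to the Edg family, and *Lpar4* and *Lpar6* to a group related to the P2Y nucleotide receptors. On endothelium, LPA is known to act on the actin skeleton and the junctions between cells.

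Each deposited value is the log2 of a signal over the median signal of its own array, given below as a multiple of that median. A signal under 1.67 times the median, which stands for 100 on a scale where an array averages the target of 500, was taken as too dim to measure. Signals under this floor were set to it, so that folds with a single measured signal are lower bounds, and genes dim on both arrays have no fold. Of all probe sets, 44.6% reached the floor in the array labelled Prom1+ and 42.9% in the array labelled Prom1-. *Pecam1*, which encodes CD31, was bright on both, at 69.2 and 48.2 times the median. *Prom1* itself had 159 times the median under the Prom1+ label and 196 times under the Prom1- label, so its transcript did not separate the arrays in the direction of their labels, and the arrays are named here by label only. At the median, the 17488 probe sets measurable on both were 1.58-fold higher in the array labelled Prom1+, a shift that varied with signal. Each measured ratio is therefore also set beside those of the 1000 probe sets nearest to it in mean signal among these 17488. Near the floor this leaves out large ratios in which 1 signal was too dim, so ranks there are limited. Around the mean of their gene, log2 ratios of probe sets of the same gene had an SD of 0.54 over 3930 genes. This is disagreement between probe sets on the same 2 arrays, and a gap between 2 ratios has a larger SD. Error of sorting, amplification and hybridization and the spread between animals were not measured.

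Of the 17 probe sets, 10 reached the floor on both arrays, 1 on the array labelled Prom1+ alone and 6 on neither. The 11 that reached it belong to 6 genes. Among these 11, 2 were at least 2-fold lower in the array labelled Prom1+, where 5.16% of all 21966 probe sets at the floor were, and 0 were at least 2-fold higher, where 26.4% were. The 2 belong to the receptor *Lpar1* and the phosphatase *Ppap2b*. The *Lpar1* probe set is one that the study lists for its low ratio on these same arrays, so it is no independent evidence, and without it the count was 1 of 10. The median log2 ratio of the 11 was 0.13, against 0.60 over all probe sets at the floor.

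**Figure D1:**
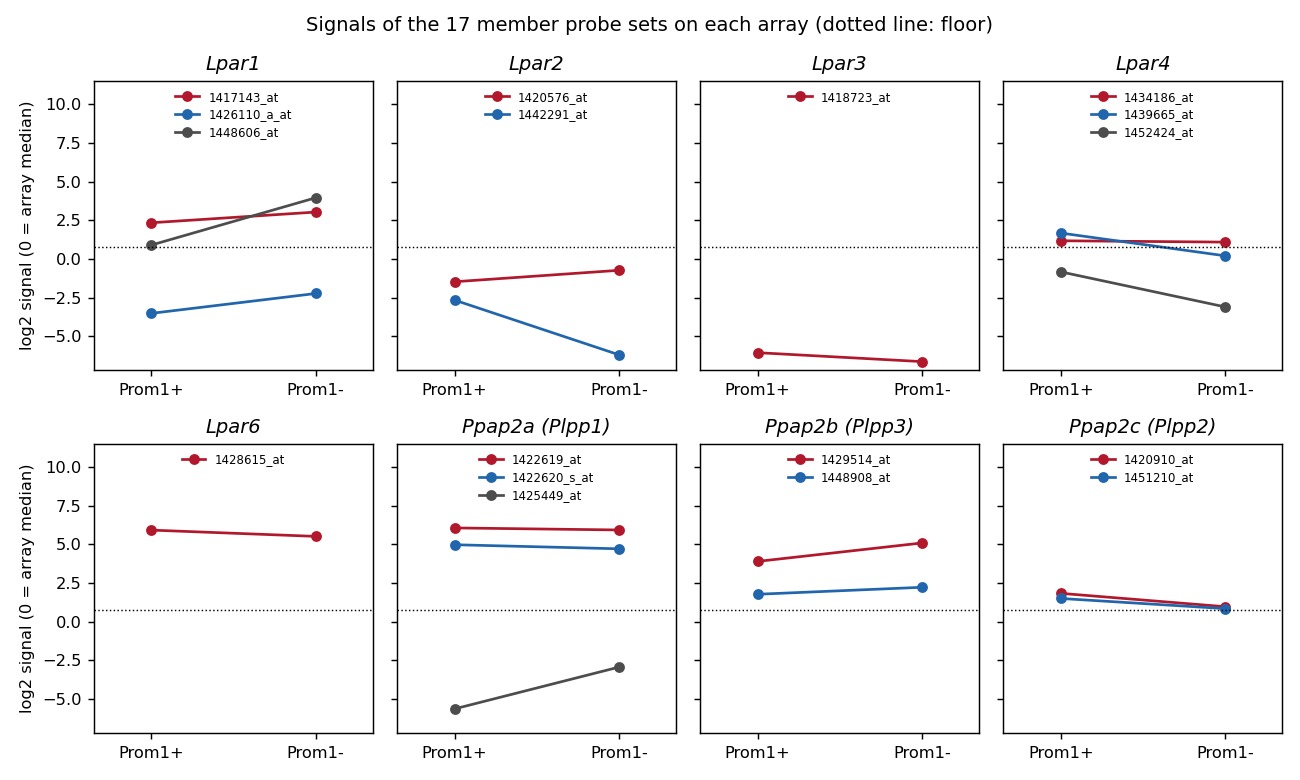
Log2 signal of each member probe set (0 is the array median) in the arrays labelled Prom1+ and Prom1-, 1 panel a gene, with each line joining the 2 values of 1 probe set and the dotted line at the floor of 1.67 times the median. As deposited, lines of *Lpar1* and *Ppap2b* above the floor run lower at Prom1+, those of *Lpar2* and *Lpar3* stay below the floor, and those of *Lpar6* and the brighter *Ppap2a* probe sets are nearly level.

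How the signals are scaled sets which members pass 2-fold. The deposited scale was set beside 5 others. These set the pan-endothelial genes equal, set both trimmed means to 500, applied quantile normalization, or removed the shift that varied with signal by loess. The last set equal the hybridization controls, transcripts foreign to the mouse that were added to the labelled sample. Setting the pan-endothelial genes equal moved measured log2 ratios by only 0.02, so it nearly repeats the deposited scale. Over these 6 scalings, *Lpar1* 1448606_at stayed at least 2-fold lower, with floored log2 ratios from -3.64 to -2.03. After loess and with the trimmed means set equal its signal under the Prom1+ label lay under the floor, so that these 2 ratios are lower bounds on the size of the difference. *Ppap2b* 1429514_at stayed lower, from -2.01 to -0.17, but was under 2-fold with the hybridization controls set equal. In that scaling *Lpar1* 1417143_at and *Ppap2b* 1448908_at turned higher, at 0.33 and 0.57, while in the other 5 they were lower, down to -1.56 and -1.23. *Ppap2c* was higher in all 6, from 0.32 to 1.59 by 1420910_at and from 0.11 to 1.26 by 1451210_at. *Lpar4* 1439665_at was also higher in all 6, from 0.68 to 1.44, each a lower bound. The sign turned for *Lpar4* 1434186_at, from -0.46 to 0.94, and for *Lpar6*, from -0.14 to 1.43. With the hybridization controls set equal, the ratios of *Ppap2c* and *Lpar4* 1434186_at, at 1.59, 1.26 and 0.94, are lower bounds. It also turned for *Ppap2a*, from -0.41 to 1.16 and from -0.50 to 1.29. After loess, 4 of the 11 were at least 2-fold lower and 0 higher, where 8.79% and 6.25% of all probe sets were. With the hybridization controls set equal, 1 was lower and 6 were higher, where 1.77% and 72.1% were.

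**Figure D2:**
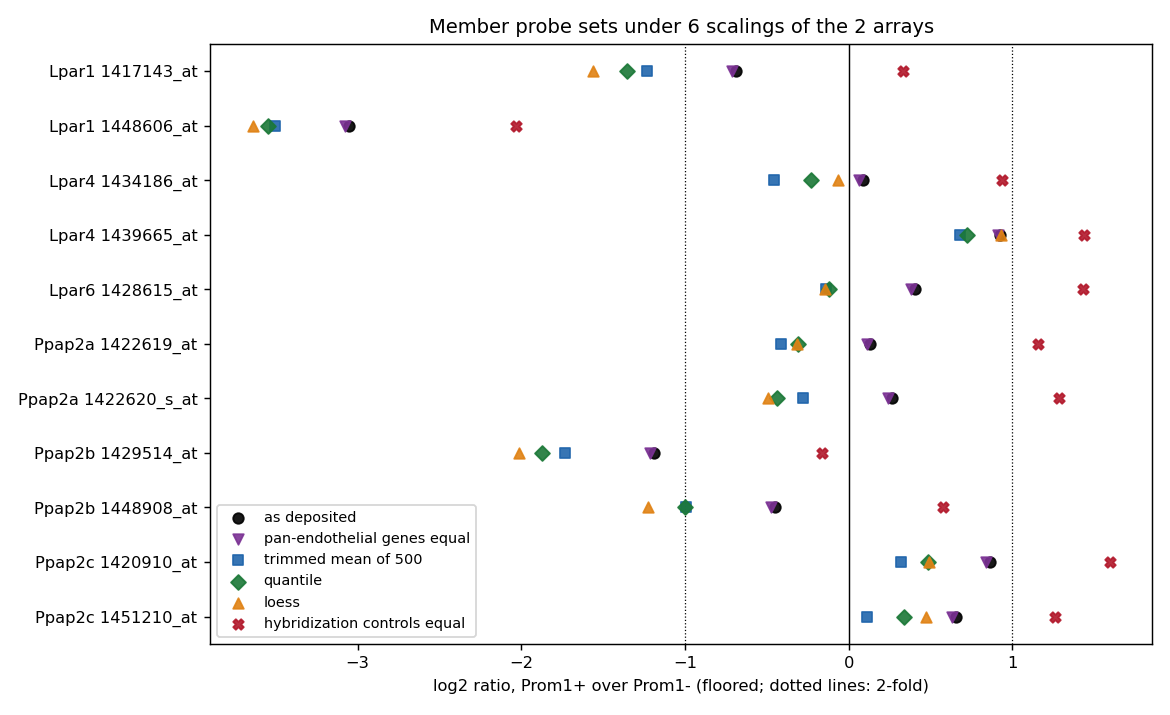
Floored log2 ratio of the array labelled Prom1+ over the array labelled Prom1- for the 11 member probe sets at the floor on at least 1 array, under 6 scalings marked by colour and shape, with dotted lines at 2-fold. *Lpar1* 1448606_at lies left of the 2-fold line under all 6, and the hybridization controls set equal give the rightmost point of each row.

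*Lpar1*, a receptor known in the nervous system from oligodendrocytes and neural progenitors, was the only receptor at least 2-fold lower, as deposited and under the other 5 scalings. Its probe set 1448606_at had 1.86 times the array median under the Prom1+ label and 15.5 times under the Prom1- label, 8.32-fold lower. The lower signal lay close to the floor. The second, 1417143_at, had 5.05 times the median under the Prom1+ label and 8.15 times under the Prom1- label, 1.61-fold lower. The third, 1426110_a_at, was under the floor on both, at 0.0870 and 0.212 times. Both measured probe sets were thus lower in the array labelled Prom1+, but the size differed, with log2 ratios of -3.06 and -0.69. This gap of 2.37 exceeds the SD of 0.54 found above, which is of single ratios rather than of gaps. With the hybridization controls set equal, 1417143_at turned higher.

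Probe sets as bright as those of *Lpar1* mostly ran the other way. Around 1448606_at the median fold was 1.83 higher in the array labelled Prom1+, and 0 of its 1000 neighbours in signal had a lower ratio. Around 1417143_at the median fold was 1.75 higher, and 78 of 1000 had a lower ratio. These ranks describe the 2 arrays and are not a test. Probe sets too dim under the Prom1+ label were not among the neighbours. Little room was thus left for a ratio below that of 1448606_at.

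The other receptors of the Edg family were not measurable. *Lpar2*, a receptor known from leukocytes and tumor cells, had 0.359 times the median under the Prom1+ label and 0.599 times under the Prom1- label by 1420576_at. By 1442291_at it had 0.158 and 0.0136 times. *Lpar3*, known for its part in embryo implantation in the mouse uterus, had 0.0149 times the median under the Prom1+ label and 0.010 times, the lowest value on the array, under the Prom1- label. For comparison, 27 control probe sets for *Bacillus* transcripts, foreign to the mouse, reached 0.234 and 0.276 times the median. Among the 3 probe sets of both genes, only 1420576_at lay above these controls, and none reached the floor. A transcript below what these probe sets can measure would read the same.

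Both P2Y-like receptors were measured. With the hybridization controls set equal each had a probe set over 2-fold higher, and in the other 5 scalings no floored ratio of either reached 2-fold, although 1 probe set of *Lpar4* has only a lower bound. *Lpar6*, a receptor known in humans for hair growth and in mice for the sprouting of vessels, had 60.3 times the median under the Prom1+ label and 45.5 times under the Prom1- label, 1.32-fold higher. Its neighbours in signal were 1.47-fold higher at the median, and 307 of 1000 had a lower ratio, so it moved about as they did. *Lpar6* rests on 1 probe set, 1428615_at. The gene lies within *Rb1*, and whether unspliced *Rb1* RNA adds to its signal was not tested.

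*Lpar4*, a receptor that takes part in the forming of blood vessels in the mouse embryo, was close to the floor. Its probe set 1434186_at had 2.25 times the median under the Prom1+ label and 2.12 times under the Prom1- label, 1.06-fold higher. By 1439665_at it had 3.18 times under the Prom1+ label and 1.15 times, under the floor, under the Prom1- label, at least 1.90-fold higher. At a floor of 50 on the target scale, where both signals could be measured, its log2 ratio was 1.47, over 2-fold. The third, 1452424_at, was under the floor on both, at 0.559 and 0.116 times. Of the 1000 neighbours of 1434186_at, 423 had a lower ratio than it did, so that it stood near the middle of them. These neighbours all had both signals above the floor, which limited how large their ratios could be.

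Among the phosphatases, as deposited, *Ppap2b* was lower, *Ppap2c* higher and *Ppap2a* nearly level. With the hybridization controls set equal only 1429514_at of *Ppap2b* stayed lower and *Ppap2a* was over 2-fold higher, whereas with the trimmed means set equal, quantile normalization and loess *Ppap2a* turned lower, by under 2-fold. *Ppap2b* encodes the phosphatase known for limiting LPA at the endothelial surface and required for vessel development in the mouse, and is also known from astrocytes. Its probe set 1429514_at had 14.8 times the median under the Prom1+ label and 33.9 times under the Prom1- label, 2.28-fold lower. Its second, 1448908_at, had 3.40 and 4.65 times, 1.37-fold lower. The log2 ratios of -1.19 and -0.45 lie 0.74 apart and share their direction. Neighbours in signal were 1.77-fold and 1.69-fold higher at the median, and 13 and 119 of 1000 had a lower ratio.

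*Ppap2c*, whose role in vessels is less known, was higher by both probe sets without reaching 2-fold. By 1420910_at it had 3.55 times the median under the Prom1+ label and 1.95 times under the Prom1- label, 1.82-fold higher. By 1451210_at it had 2.82 and 1.79 times, 1.58-fold higher. All 4 signals lay near the floor. The median fold of neighbours was 1.29 and 1.17 higher, and 778 and 793 of 1000 had a lower ratio. Here too the neighbours all had both signals above the floor, which limited their ratios.

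*Ppap2a*, the broadly expressed member of the family, was bright and, as deposited, nearly level. By 1422619_at it had 66.5 times the median under the Prom1+ label and 60.7 times under the Prom1- label, 1.10-fold higher. By 1422620_s_at, a probe set marked as able to match more than 1 transcript, it had 31.3 and 26.1 times, 1.2-fold higher. Their log2 ratios lay 0.13 apart, and 138 and 125 of 1000 neighbours had a lower ratio. The third, 1425449_at, was under the floor on both, at 0.020 and 0.130 times. The annotated span of *Ppap2a* overlaps that of *Mtrex*, and whether this bears on its probe sets was not tested.

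**Figure D3:**
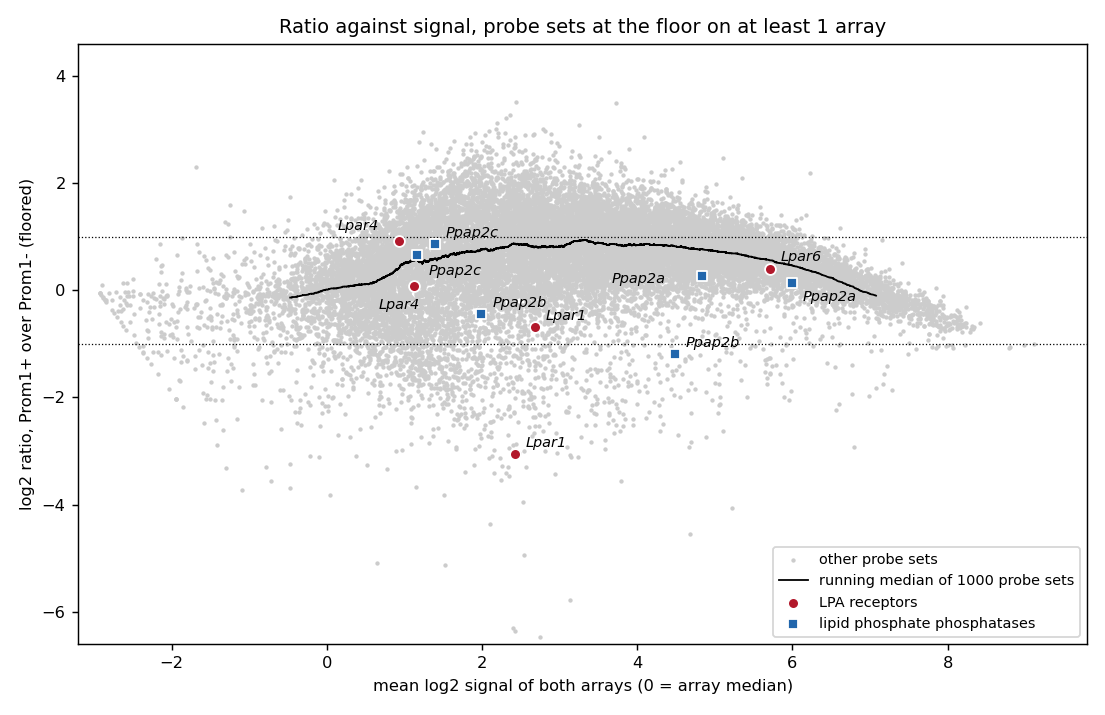
Floored log2 ratio of the array labelled Prom1+ over the array labelled Prom1- (vertical) against the mean log2 signal of both (horizontal), for probe sets at the floor on at least 1 array. A running median over 1000 probe sets is drawn in black, and dotted lines mark 2-fold. As deposited, the *Lpar1* and *Ppap2b* probe sets lie below the running median, *Lpar1* 1448606_at at -3.06 the farthest, and those of *Ppap2c* lie above it.

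Promoters are shown for *Lpar1* and *Ppap2b*, which were lower together, and for *Ppap2c*, the phosphatase that was higher. Each run holds the 250 bases before a RefSeq transcript start of GRCm38.p6, read 5′ to 3′ on the gene's strand. RefSeq windows were matched for 7 of the 9 genes. *Lpar1* has several starts, of which the outermost and an inner one are given. Capitals mark matches on either strand to 4 letter strings, the GC box GGGCGG, the TATA box TATAAA, the CCAAT box CCAAT and the ETS core CCGGAAG. Where matches overlap they share their capitals.
Lpar1, outermost start, chr4:58553492-58553741, minus strand: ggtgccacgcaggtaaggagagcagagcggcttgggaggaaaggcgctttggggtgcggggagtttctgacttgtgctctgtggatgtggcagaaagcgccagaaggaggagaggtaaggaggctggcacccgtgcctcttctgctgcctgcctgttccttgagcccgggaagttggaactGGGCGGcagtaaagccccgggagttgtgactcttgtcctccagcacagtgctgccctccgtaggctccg
Lpar1, inner start, chr4:58499404-58499653, minus strand: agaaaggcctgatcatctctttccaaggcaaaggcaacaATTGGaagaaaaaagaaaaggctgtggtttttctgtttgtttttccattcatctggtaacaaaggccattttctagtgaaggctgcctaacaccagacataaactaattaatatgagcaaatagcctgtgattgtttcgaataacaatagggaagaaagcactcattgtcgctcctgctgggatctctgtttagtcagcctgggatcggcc
Ppap2b (Plpp3), chr4:105157097-105157346, plus strand: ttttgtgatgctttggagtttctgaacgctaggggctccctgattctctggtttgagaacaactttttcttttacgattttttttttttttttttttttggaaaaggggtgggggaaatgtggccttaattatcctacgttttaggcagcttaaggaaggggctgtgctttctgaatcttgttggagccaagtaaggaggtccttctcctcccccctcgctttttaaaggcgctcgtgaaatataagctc
Ppap2c (Plpp2), chr10:79533788-79534037, minus strand: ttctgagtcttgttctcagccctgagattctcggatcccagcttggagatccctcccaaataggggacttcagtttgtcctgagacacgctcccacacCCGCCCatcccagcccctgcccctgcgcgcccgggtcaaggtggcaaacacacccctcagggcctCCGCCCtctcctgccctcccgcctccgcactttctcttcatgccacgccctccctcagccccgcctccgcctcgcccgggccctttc

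The outermost *Lpar1* window held 1 GC box and 11 CpG dinucleotides, and the inner one held 1 CCAAT box and 3 CpG. Another *Lpar1* window, which overlaps the outermost and is not shown, held 1 GC box and 28 CpG. The *Ppap2b* window held none of the 4 strings and 6 CpG. The *Ppap2c* window held 2 GC boxes and 14 CpG. Over 32851 such windows of all genes the median was 6 CpG, and 32.7% held a GC box, 12.4% a TATA box, 33.8% a CCAAT box and 6.91% the ETS core. With no match of its own, the *Ppap2b* window could share none with those of *Lpar1*. A match is a description of the letters, and the arrays hold no measure of binding.

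Cells of other types are known to express these genes, and their transcripts also differed between the arrays. Of 14 pericyte and smooth muscle genes at the floor, 12 were at least 2-fold lower in the array labelled Prom1+ and 0 were higher, where 4.77% of all 10793 genes at the floor were lower and 28.2% higher. Their summed signal was 404 times the median under the Prom1+ label and 1231 times under the Prom1- label. The contractile gene *Tagln* had 43.6 and 206 times. Of 10 fibroblast and meningeal genes at the floor, 7 were lower and 0 higher by 2-fold, with a summed signal of 78.1 times under the Prom1+ label and 424 times under the Prom1- label. *Ptgds*, a lipocalin enzyme of the meninges, had 40.3 and 305 times and made up most of both sums. *Fmod*, a small matrix proteoglycan, had 8.45 and 47.6 times. *Pdgfra* read higher, at 2.80 and 0.687 times, the second under the floor. The median log2 ratios of -1.78 and -1.41 of these lists stayed below 0 over the 6 scalings, up to -0.75 and -0.95. Fewer such cells and less RNA per cell cannot be told apart in sorted bulk samples.

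Transcripts of astrocytes and oligodendrocytes went both ways. Of 8 astrocyte genes at the floor 2 were lower and 1 was higher by 2-fold, and the summed signal was 128 times the median under the Prom1+ label and 120 times under the Prom1- label. The astrocyte gene *S100b* had 3.11 and 15.9 times, *Slc1a3* 17.7 and 18.5 times and *Gja1* 84.5 and 67.0 times. The defining markers *Gfap* and *Aqp4* were under the floor on both arrays. Of 9 oligodendrocyte genes 2 were lower and 1 was higher, with summed signals of 364 and 557 times. The myelin genes *Mbp*, at 119 and 271 times, and *Mobp*, at 56.9 and 153 times, were the 2 lower ones, and *Mal* had 141 and 113 times. Over the 6 scalings the medians of these 2 lists took both signs.

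Of 10 microglial genes at the floor 8 were at least 2-fold lower and 0 higher, with summed signals of 105 times the median under the Prom1+ label and 245 times under the Prom1- label. The complement gene *C1qb* had 31.8 and 78.7 times. Over the scalings the microglial median stayed below 0, but the count of lower genes ran from 0 to 10. Of 4 choroid plexus genes at the floor 2 were lower, among them *Ttr*, the carrier of thyroid hormone, at 210 and 426 times, and the list summed to 215 and 437 times. Its median turned with the hybridization controls set equal. Of 3 neuronal genes at the floor 2 were lower, *Snap25* at 0.649 and 4.89 times and *Syt1* at 0.0152 and 10.2 times. The neuronal list summed to 81.1 and 63.3 times, most of it *Stmn2* at 79.5 and 45.1 times. Its median log2 ratio of -1.55 stayed below 0 over the 6 scalings, up to -1.03. Of 6 lymphocyte genes none reached the floor. Of 14 pan-endothelial genes 13 were under 2-fold and 1 was higher, with summed signals of 1888 and 2126 times. The part of these other cells in the lower signals of *Lpar1* and *Ppap2b* was not tested.

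Other genes of LPA metabolism and signalling were shifted, at the median, about as much as all genes. Of 60 such genes in 6 lists 56 had a probe set and 46 reached the floor. Of these 46, 0 were at least 2-fold lower and 9 were at least 2-fold higher, against the 4.77% and 28.2% of all genes given above. Their median log2 ratio was 0.67, and that of all genes at the floor was 0.66. Whether the counts depart from those of the rest was not tested. The count of 0 lower genes depends on the floor. At a floor of 50 on the target scale 2 of 49 were at least 2-fold lower, as were 8.02% of all probe sets.

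Of 11 enzymes at the floor that can make LPA or its precursors, 3 were at least 2-fold higher. The phospholipase *Pld2* had 30.5 times the median under the Prom1+ label and 12.03 times under the Prom1- label, 2.53-fold higher. The phospholipase *Pla2g4a*, which releases arachidonic acid, had 18.6 and 7.55 times. *Gdpd3*, which can release LPA from lysophospholipids, had 83.4 and 101 times, and the acyltransferase *Gpam*, which makes LPA inside the cell, had 18.2 and 14.4 times. These last 2 differed by under 2-fold.

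Of 6 acyltransferases listed for the step from LPA to phosphatidic acid, 1 was at least 2-fold higher. How far each of them acts on LPA was not tested. *Lclat1* had 9.84 times the median under the Prom1+ label and 4.05 times under the Prom1- label, 2.43-fold higher. *Agpat3* had 30.8 and 20.6 times, *Agpat5* 21.4 and 13.9 times and *Agpat4* 14.4 and 7.47 times.

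Of 7 other lipid phosphatases at the floor 2 were at least 2-fold higher. The phosphatidate phosphatase *Lpin2* had 84.5 times the median under the Prom1+ label and 39.3 times under the Prom1- label, 2.15-fold higher. *Plpp5*, a relative of the members, had 12.7 and 5.97 times, 2.13-fold higher, and *Plpp6* had 26.9 and 19.1 times. Of 3 relatives of *Enpp2* at the floor, *Enpp4* had 36.6 and 18.2 times and was 2.01-fold higher. *Enpp5* had 2.65 and 0.997 times and *Enpp6* 0.720 and 2.42 times, each with 1 signal under the floor. The receptor *Lpar5* is not analysed here.

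Of 19 genes that carry the signal from LPA receptors into the cell, 2 were at least 2-fold higher, and the floored ratios of the other 17 did not reach 2-fold. *Mrtfa*, a coactivator that responds to actin, had 18.9 times the median under the Prom1+ label and 7.65 times under the Prom1- label, 2.47-fold higher. The G protein *Gnai2* had 119 and 137 times and differed by under 2-fold. In the scalings to a trimmed mean and quantile normalization 0 of the 46 genes were at least 2-fold higher, and after loess 0 of 45. In these 3 scalings 8.12%, 6.99% and 6.25% of all probe sets were. Also in these 3, 0 of the genes were at least 2-fold lower, where 9.31%, 8.92% and 8.79% of all probe sets were.

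**Figure D4:**
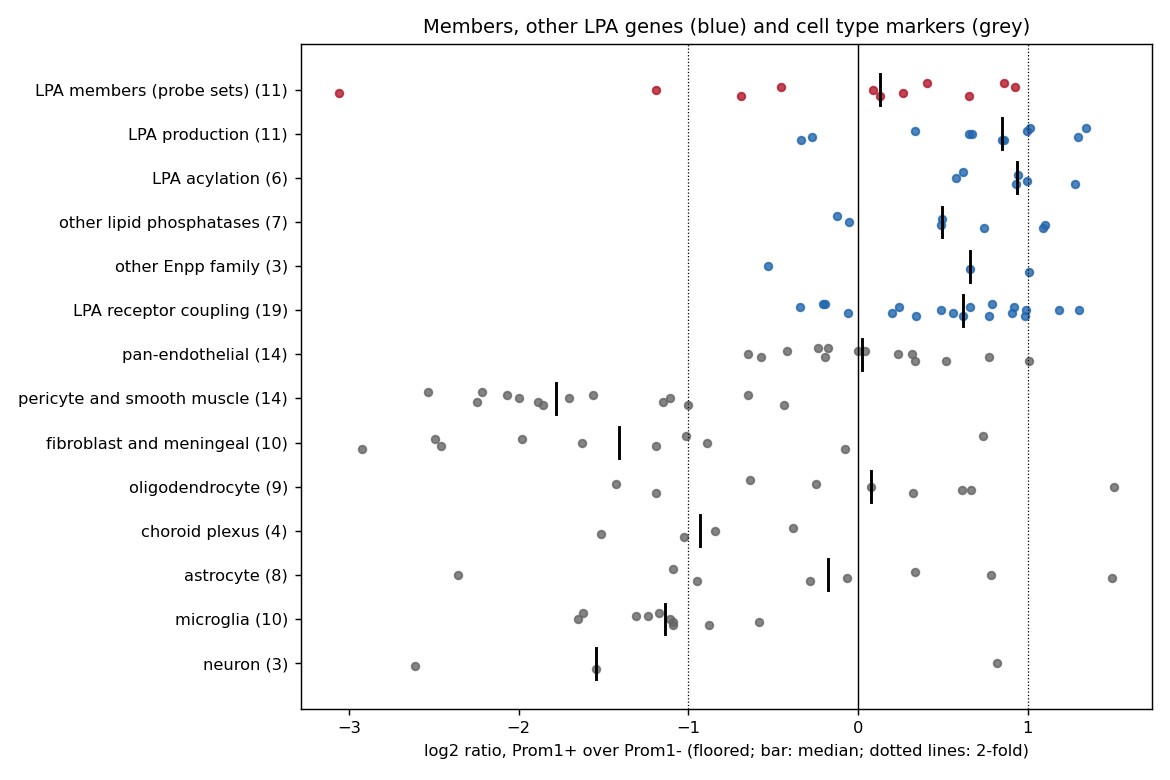
Floored log2 ratio of the array labelled Prom1+ over the array labelled Prom1- for the member probe sets (red) and for the genes of each LPA list (blue) and cell type list (grey) at the floor on at least 1 array, with their number in brackets. Bars are medians, and dotted lines mark 2-fold. The bar of pericyte and smooth muscle genes lies at -1.78 and that of the fibroblast and meningeal genes at -1.41, while the 5 blue bars lie above 0.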

How the data were processed

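Total RNA of each sorted population was amplified, labelled with biotin and hybridized to 1 Affymetrix Mouse Genome array. Per the labels the signals are MAS5 values, with no version given, and the authors scaled each array to a target of 500 and normalized in GeneSpring. In the deposited table each value is a log2 signal relative to its array's median, so that both medians are 0, and the lowest is -6.64. The floor was 100 on the target scale. Averaging the 2% trimmed means of the arrays placed it at 1.67 times the median.

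Of 45101 probe sets the platform annotation gives 1 gene symbol to 34958 and several to 932, and 9211 are unlisted. Symbols were updated through a GRCm38.p6 gene table. The brightest probe set stood for a gene outside the 9 members. With 1 array per population the number of arrays limits the precision. Every member probe set is named; of each other LPA list the 3 brightest genes and up to 2 with the largest ratio each way among those at least 2-fold different, and of each marker list some of the 3 brightest. *Pecam1*, *Prom1*, *Gfap*, *Aqp4* and *Pdgfra* are named as markers, and *Rb1* and *Mtrex* for position. The members and lists were chosen with earlier results of these data known. The alternatives were other floors, thresholds and scalings, with loess at a span of 0.2. Python 3.11.15, numpy 2.4.6, pandas 2.3.3, statsmodels 0.14.6 and matplotlib 3.10.9 were used. Some genes of the receptor coupling list are not reported here by name.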

Additional observations from a re-analysis of the deposited data

How the results depend on the processing

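No paired analysis was possible because each population has 1 array, and no array could be left out. Under the other floors and scalings, neither member ratio of at least 2-fold changed sign. The count of member probe sets at least 2-fold lower, 2 of 11 as reported, was 4 of 17 with no floor, 4 of 11 after loess and 1 of 11 at 3-fold. It was 1 with the hybridization controls set equal and 1 without the *Lpar1* probe set that the study lists, both alternatives chosen after seeing the data. The count at least 2-fold higher, 0 as reported, was 1 at a floor of 50, 3 with no floor, 3 at 1.5-fold and 6 with the hybridization controls set equal. Without a floor 21% of all probe sets were lower and 28.4% higher. At a floor of 50, 26.7% of all were higher, and at 1.5-fold 50.7% were. At 3-fold 2.38% of all were lower, and after loess 8.79% were. With the hybridization controls set equal 1.77% of all were lower and 72.1% higher. Of the other LPA genes, 0 of 46 were lower as reported. At a floor of 50 it was 2 of 49, and with no floor 8 of 56, where 8.02% and 21% of all probe sets were. The 9 higher ones became 0 with a trimmed mean of 500, quantile normalization, loess or a threshold of 3-fold. In these settings 8.12%, 6.99%, 6.25% and 6.42% of all probe sets were higher. They became 28 of 46 at 1.5-fold and 37 of 46 with the hybridization controls set equal, beside the 50.7% and 72.1% of all probe sets. With probe sets averaged by gene they became 14 of 41, for which no share over all genes was taken. Signals near the floor limit *Lpar4* and *Ppap2c*. At a floor of 200, the lower signal of *Lpar1* 1448606_at fell under it, with a log2 ratio of -2.21 or lower.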
